A study of Mus musculus with 2 samples.

Results

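Barcodes with RNA of both Tcf21 and Aldh1a2 were described in droplet single-cell RNA sequencing of the mouse genital tubercle, the outgrowth of the embryo from which penis and clitoris form. A barcode was kept if it had at least 4000 unique molecular identifiers (UMIs, each standing for 1 captured RNA molecule), at least 500 genes, at most 10% mitochondrial UMIs and no UMI of Epcam, Cdh5, Sox10 or Ptprc, markers of epithelium, endothelium, glia and immune cells. Kept barcodes with at least 1 UMI of each gene are called double-positive, and those with neither gene double-negative. Of 25346 kept barcodes 611 were double-positive, 344 male and 267 female. The double-negative barcodes numbered 11125 and 12152, and 281 male and 287 female barcodes had Tcf21 alone and 442 and 448 Aldh1a2 alone. The study made 1 male and 1 female library from wild-type C57BL/6 embryos at embryonic day 14.5 (Theiler stage 22), each library from the tubercles of 3 embryos pooled by sex from 2 litters, with no treatment or mutation given. With 1 pooled library per sex there was no replicate, no test was made, and every interval is a 95% interval for counting error only.

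Tcf21 encodes a basic helix-loop-helix (bHLH) transcription factor known from the mesenchyme of internal organs and from progenitors of fibroblasts. Aldh1a2 encodes retinaldehyde dehydrogenase, the enzyme that makes retinoic acid in most embryonic mesenchyme. Rdh10 supplies it with retinaldehyde, Dhrs3 turns retinaldehyde back into retinol, and enzymes of the Cyp26 family break retinoic acid down. Retinoic acid binds nuclear receptors of the RAR family, and the receptor gene Rarb is itself a known target of the signal. In the genital tubercle the signals best known to pattern the mesenchyme are Hedgehog from the urethral epithelium, Wnt, FGF and BMP.

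The libraries held 130105692 male and 144515562 female UMIs in all. Double-positive barcodes held 2764046 and 2535571 UMIs, against 77242540 and 91557706 in double-negative barcodes. They were the deeper class, with a median of 6493 UMIs and 2567 genes in male and 7866 UMIs and 2890 genes in female barcodes, against 5841 UMIs and 2300 genes and 6113 UMIs and 2409 genes in double-negative barcodes. Their median mitochondrial share was 7.32% and 7.29%, against 6.60% and 6.59%, and haemoglobin made up 0.461% and 0.562% of their UMIs, against 0.761% and 1.22%. Both libraries shared 47 kept barcode sequences, which were those of 2 double-positive barcodes in the female library and of none in the male library. Xist, the RNA of the inactive X chromosome, had 0 UMIs in male and 3962 in female double-positive barcodes, and the Y-linked gene Ddx3y had 167 and 0. One cluster of the kept barcodes, led by Tagln and Acta2, held 193 male barcodes and no female one, and 9 of the 193 were double-positive. Results on the smooth muscle list are given with and without it.

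Double-positive barcodes made up 2.82% of kept barcodes in the male library (interval 2.53 to 3.13%) and 2.03% in the female library (interval 1.80 to 2.29%). The order stayed with every kept barcode thinned to 4000 UMIs, with 1.80% (interval 1.57 to 2.05%) and 1.06% (interval 0.889 to 1.25%). It turned at a mitochondrial limit of 5%, which left 5 male and 6 female double-positive barcodes, or 0.590% and 0.719%. The share depended on depth. It was 2.45% and 1.53% among barcodes with fewer than 8000 UMIs, and 3.90% and 3.17% at 8000 UMIs or more. Barcodes dropped for a UMI of Epcam, Cdh5, Sox10 or Ptprc had both genes in 2.26% (20 of 885, interval 1.39 to 3.47%; median depth 8608 UMIs) and 1.90% (15 of 788, interval 1.07 to 3.12%; median depth 9330 UMIs). Both intervals held the share of all kept barcodes, which were less deep, with medians of 5869 and 6187 UMIs. Both lay below the 3.90% and 3.17% of kept barcodes with 8000 UMIs or more. No comparison at equal depth was made. Among barcodes with at least 2 UMIs of the endothelial gene Cdh5, 0 of 167 male and 2 of 112 female barcodes had both genes. For the male barcodes 3 would make 1.80%, and the interval reaches 2.18%. Between clusters the share differed far more than between these groups. It ran from 0 of 1170 male barcodes of one cluster, where 3 would make 0.256%, to 60 of 279 in another.

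The 2 genes of the rule were found together more often than the product of their shares. Tcf21 (chromosome 10, positions 22817281 to 22820174 in mm10) had a UMI in 625 male and 554 female kept barcodes, and Aldh1a2 (chromosome 9, positions 71215789 to 71296243) in 786 and 715. The product of these shares would give 40.3 male and 30.1 female double-positive barcodes, and the numbers found were 8.54 and 8.87 times as high. The same counts chose the barcodes, so this excess describes the rule and supports nothing further. The product also takes no account of depth or cluster, with which the share of double-positive barcodes changed. Of barcodes with Tcf21, 55.0% in male and 48.2% in female barcodes also had Aldh1a2. In the other direction, 43.8% and 37.3% of barcodes with Aldh1a2 also had Tcf21. Both counts were low in a single barcode. The median was 2 male and 1 female UMI of Tcf21, with a maximum of 11 and 9, and 2 UMIs of Aldh1a2 in both libraries, with a maximum of 12 and 17. At the threshold itself, 67 male (19.5%) and 64 female barcodes (24.0%) had exactly 1 UMI of each gene, and 116 and 84 had at least 2 of each.

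Clusters made without Tcf21 and Aldh1a2 gathered most double-positive barcodes in 3 of 23 clusters, which are named here by their leading genes and given no cell type. Cluster 1, led by Aldh1a2, Tcf21 and Foxf1, held 176 of 344 male and 86 of 267 female double-positive barcodes. Cluster 7, led by Tcf21, Aldh1a2 and Krt14, held 60 and 60. Krt14 itself had 0 UMIs in these male and 2 in these female double-positive barcodes. Cluster 11, led by Sall3, Lbx2 and Col8a1, held 50 and 53. Together the 3 clusters held 83.1% of male and 74.5% of female double-positive barcodes, and 17.9% and 15.9% of all kept barcodes. Even the cluster richest in them was not made of them, since double-positive barcodes were 21.5% of male and 20.98% of female barcodes of cluster 7, and 16.4% and 11.5% of cluster 1. The remaining 58 male and 68 female double-positive barcodes lay in other clusters and had a median of 10694 and 11215 UMIs, against 4911 and 4961 UMIs in cluster 1. Doublet scores were high more often in double-positive barcodes. The barcodes with the highest scores, 9.75% of male and 10.5% of female kept barcodes, included 17.7% and 19.9% of the double-positive ones. The part of doublets in the results was not tested beyond leaving these barcodes out.

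**Figure D1:**
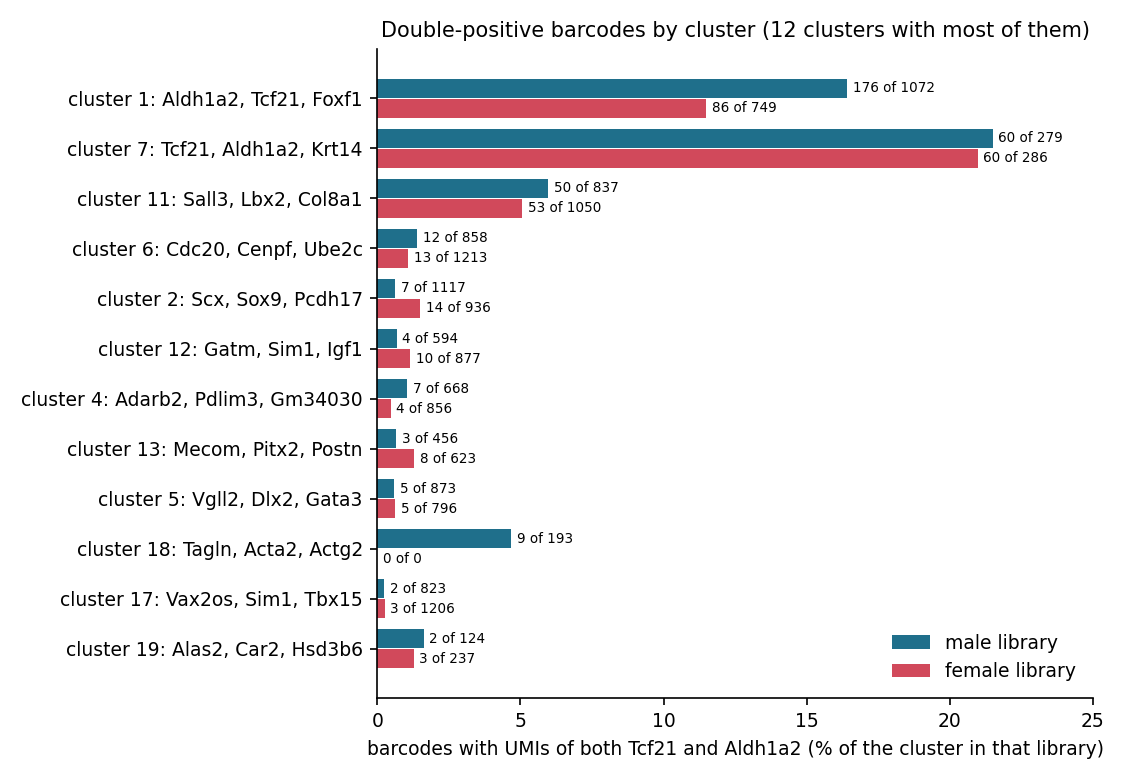
Share of each cluster's barcodes that had UMIs of both Tcf21 and Aldh1a2 (x axis, percent), in the male and the female library, for the 12 clusters with most of them; the numbers give double-positive barcodes of all barcodes in the cluster. Clusters 7 and 1 have the highest shares in both libraries, and cluster 18, led by Tagln and Acta2, has 9 of 193 male barcodes and no female barcode.

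Among genes with at least 50 UMIs per 1000000 in double-positive barcodes of both libraries, Cldn11, Foxf1, Gucy1a1, Ppp1r14a and Foxp2 had the highest ratios. Genes were ranked by the smaller ratio of the libraries, with the genes of the rule left out. Myocd had higher ratios but lay below 50 UMIs per 1000000 in both, and is given with the smooth muscle genes. Levels are UMIs summed over the barcodes of a class per 1000000 UMIs of that sum (CPM), and ratios are double-positive over double-negative on a log2 scale. Because the barcodes were chosen from the same cells, these ratios describe them and support nothing further. Of 12053 genes whose counts summed to 100 or more in each library, 209 (1.73%) were at least 1 log2 unit higher in both libraries and 191 (1.58%) at least 1 log2 unit lower, and the median of all genes was 0.05 and 0.06. Over all genes 41.9% were above 0 in both libraries, 26% below 0 in both and 32.1% on opposite sides. The genes named next are the 20 highest and 12 lowest among those with at least 50 CPM in the higher class, ranked by the smaller ratio of the libraries.

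Foxf1, a forkhead factor of Hedgehog-responsive mesenchyme (chromosome 8, positions 121084386 to 121088144), was at 230.1 CPM in double-positive and 27.4 CPM in double-negative barcodes of the male library, and at 263 and 27.9 CPM in the female library. The ratios were 3.07 (interval 2.94 to 3.20) and 3.24 (interval 3.12 to 3.36), and a Foxf1 UMI was seen in 71.8% and 81.6% of double-positive barcodes, against 13.0% and 14.4% of double-negative ones. Foxp2, another forkhead factor, was at 288 against 34.0 CPM in male and 276 against 45.6 CPM in female barcodes. Foxd2 was at 65.8 against 15.2 CPM and at 91.1 against 17.7 CPM. All 3 factors were thus well above the double-negative level in each library. Gucy1a1, a subunit of the receptor for nitric oxide, was at 117 against 15.5 CPM in male and 112 against 12.1 CPM in female barcodes. Ppp1r14a, an inhibitor of myosin phosphatase in smooth muscle, was at 140.4 against 19.6 CPM and at 125 against 13.8 CPM. Mylk, the kinase of the myosin light chain, had ratios of 2.19 and 1.58. Cldn11, a tight junction protein, had ratios of 3.097 and 3.25, among the highest in both libraries. Akap12, a scaffold for protein kinase A, was at 127 against 14.1 CPM in the male library and at 51.3 against 13.0 CPM in the female library, the widest gap between the libraries in this group, with ratios of 3.18 and 1.98.

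Several of the remaining genes act at the cell surface or in the matrix. Plxna2 and Nrp2, a receptor and a co-receptor of semaphorins, had ratios of 2.36 and 1.72 in male and of 2.74 and 1.62 in female barcodes. Col8a1, a chain of type VIII collagen, was at 97.7 against 28.1 CPM and at 63.1 against 19.2 CPM. Tgfbi, a matrix protein induced by TGF-beta, was at 148 against 49.6 CPM and at 133 against 42.1 CPM. Ratios of these matrix genes were close between the libraries, at 1.80 and 1.72 for Col8a1 and at 1.58 and 1.66 for Tgfbi. The poly(A) polymerase gene Fam46a had 2.18 and 2.38, Phlda1 2.25 and 2.13, Tmem158 2.17 and 2.15, Lbh 2.21 and 1.71, Pdzd2 1.80 and 1.83, Nrk, an X-linked kinase gene, 1.70 and 1.54, and Rev3l, the catalytic subunit of a DNA polymerase, 1.74 and 1.60. Rdh10, the other gene of the 20, is given with the retinoid genes.

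**Figure D2:**
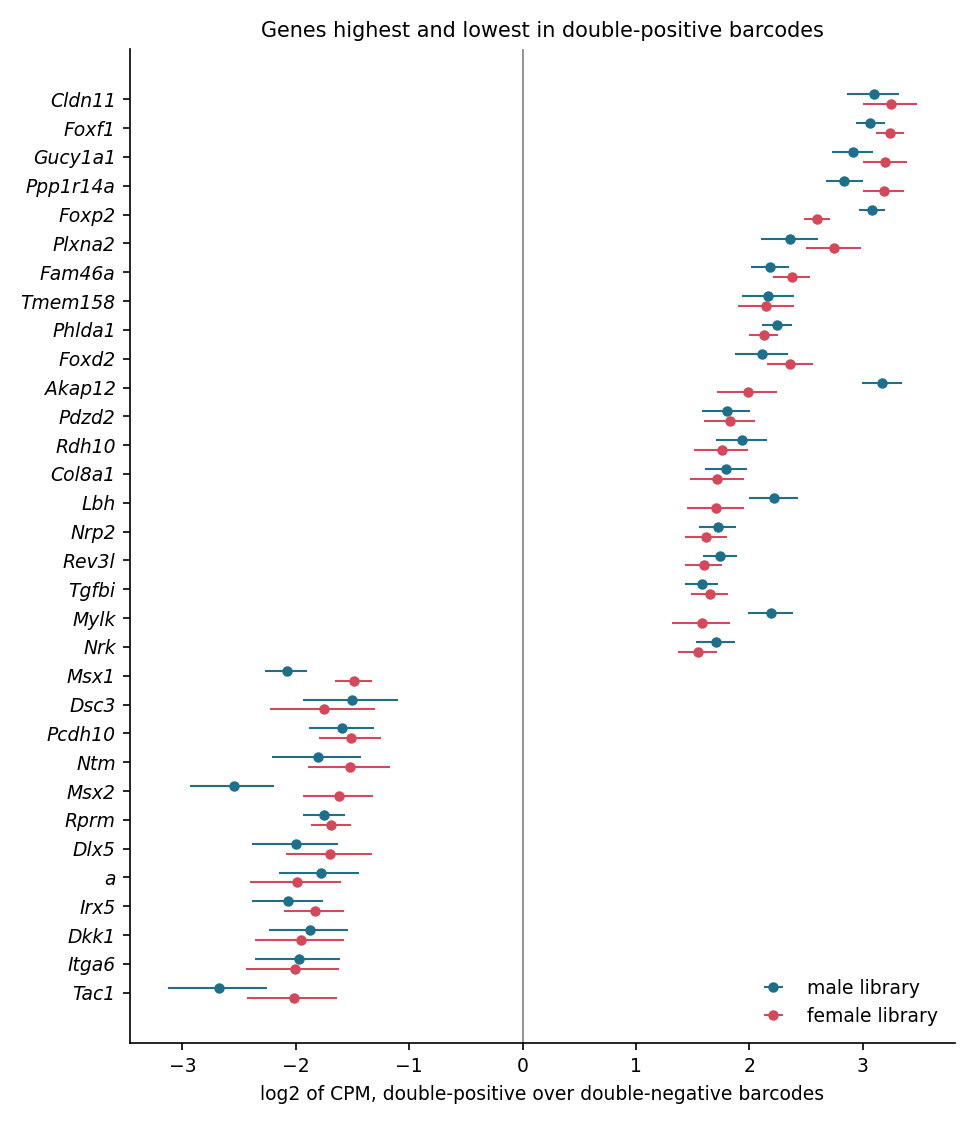
log2 ratio of CPM in double-positive over double-negative barcodes (x axis) for the 20 highest and 12 lowest genes by the naming rule, in the male and the female library; bars are 95% intervals for counting error. Intervals of the libraries overlap for most of these genes, and those of Ppp1r14a, Foxp2, Akap12, Lbh, Mylk, Msx2 and Msx1 do not.

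The genes lowest in double-positive barcodes included homeobox factors of the distal tubercle. Msx1 was at 86.1 CPM in double-positive and 364 CPM in double-negative barcodes of the male library, and at 126 and 353 CPM in the female library. Msx2 was at 22.8 against 133 CPM and at 35.9 against 110.3 CPM, and Dlx5 at 21.7 against 86.5 CPM and at 23.3 against 75.3 CPM. The homeobox gene Irx5 had ratios of -2.06 and -1.83. On the list of 8 distal mesenchyme genes, all were lower in both libraries and 7 by at least 1 log2 unit, with list medians of -2.10 and -1.45. This group thus stood well below the double-negative level in both libraries. Tac1, the precursor of substance P, had the lowest ratio of the 12 among male barcodes, at -2.67 (16.3 against 104 CPM), and -2.02 in the female library (21.3 against 86.3 CPM). Itga6, an integrin chain, had -1.97 and -2.01, and Dkk1, a secreted Wnt inhibitor, -1.88 and -1.95. The agouti gene a had -1.78 and -1.99, Rprm -1.75 and -1.68, and the adhesion genes Pcdh10, Ntm and Dsc3 -1.59, -1.80 and -1.50 in male and -1.52, -1.52 and -1.75 in female barcodes.

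Rdh10, Dhrs3 and the receptor gene Rarb were higher among the retinoid genes beside Aldh1a2, and the breakdown enzyme Cyp26b1 was lower. Rdh10 was at 67.7 against 17.7 CPM in the male library (1.93, interval 1.71 to 2.16) and at 61.9 against 18.3 CPM in the female library (1.76, interval 1.51 to 1.99). Dhrs3 was at 36.9 against 6.94 CPM (2.41) and at 28.0 against 5.57 CPM (2.33). Of 10 measured genes of retinoid synthesis and transport these 2 were past 1 log2 unit, both upwards. Of the 10, 3 were above 0 in both libraries and 4 below 0 in both, with list medians of 0.085 and -0.065. Among the binding proteins, Crabp1 had ratios of -0.61 and -0.99, and Crabp2, which carries retinoic acid to its receptors, -0.65 and -0.35. Stra6, a retinol transporter gene, had 0.19 and -0.05. Rdh11 had -0.02 and -0.08, and Dhrs4 -0.11 and 0.31. These genes lay on both sides of 0. Cyp26b1 was at 14.1 against 43.5 CPM (-1.62, interval -2.12 to -1.17) and at 12.6 against 38.5 CPM (-1.61, interval -2.16 to -1.11). Its relative Cyp26a1 fell short of the count minimum, with 9 UMIs in male double-positive barcodes, or 3.26 CPM against 0.181 CPM, and 4 in female ones, or 1.58 CPM against 0.0109 CPM. Aldh1a1 had no UMI in double-positive barcodes of either library, and Aldh1a3 had 10 male and 2 female UMIs.

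Rarb (chromosome 14, positions 16430839 to 16819156) was at 85.7 CPM in double-positive and 20.002 CPM in double-negative barcodes of the male library, and at 59.6 and 21.6 CPM in the female library. The ratios were 2.10 (interval 1.90 to 2.30) and 1.46 (interval 1.21 to 1.70). Of the other receptors, Rara had -0.07 and -0.07, Rarg -0.48 and -0.59, Rxra 0.32 and 0.27, and Rxrb 0.09 and -0.10, so that Rarb was the 1 receptor of 5 measured that was past 1 log2 unit. Its promoter is shown because it holds the classic element through which retinoic acid receptors act. The 250 bases before the start of transcription in RefSeq (GRCm38.p6, chr14:16575477-16575726, minus strand) read 5′ to 3′, with the core of the element in capitals:

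Rarb: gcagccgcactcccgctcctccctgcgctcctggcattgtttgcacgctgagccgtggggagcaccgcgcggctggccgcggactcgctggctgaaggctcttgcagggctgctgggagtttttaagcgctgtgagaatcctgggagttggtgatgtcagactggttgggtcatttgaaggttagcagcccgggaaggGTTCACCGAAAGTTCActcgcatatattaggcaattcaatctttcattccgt

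The capitals mark 2 copies of GNTCA with 6 bases between them, searched as GNTCANNNNNNGNTCA on both strands, and lie 52 to 37 bases before the start. The same letters were found in 255 of 32851 RefSeq windows of the same 250 bases (0.776%). They were in the promoters of Rarb and Cyp26a1 among 26 matched genes of the retinoid lists, and in 0 of 12 matched genes among the 20 highest ones. A match describes the sequence and is not a measured binding site.

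Of 12 measured genes on a list of retinoid-responsive genes, 4 were past 1 log2 unit upwards and 1 downwards, with medians of 0.70 in male and 0.18 in female barcodes. Besides Rarb and Dhrs3 these were Meis2 and Nr2f2, and the lower one was Cyp26b1. Meis2, a homeobox cofactor, was at 668 against 157 CPM and at 385 against 173 CPM, with ratios of 2.09 and 1.16. Nr2f2, the orphan receptor COUP-TFII, was at 156 against 57.2 CPM and at 172 against 69.4 CPM. The related Nr2f1 had 1.25 and 0.01 and Meis1 0.91 and 0.21, so that both were nearer to the double-negative level in the female library. Of 13 measured HoxB, HoxC and anterior Hox genes, 2 were past 1 log2 unit, both upwards. These were Hoxa3, with 1.16 and 1.31, and Hoxb3, with 1.70 and 1.10. None of 15 posterior Hox and limb-type position genes was past 1 log2 unit in both libraries.

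**Figure D3:**
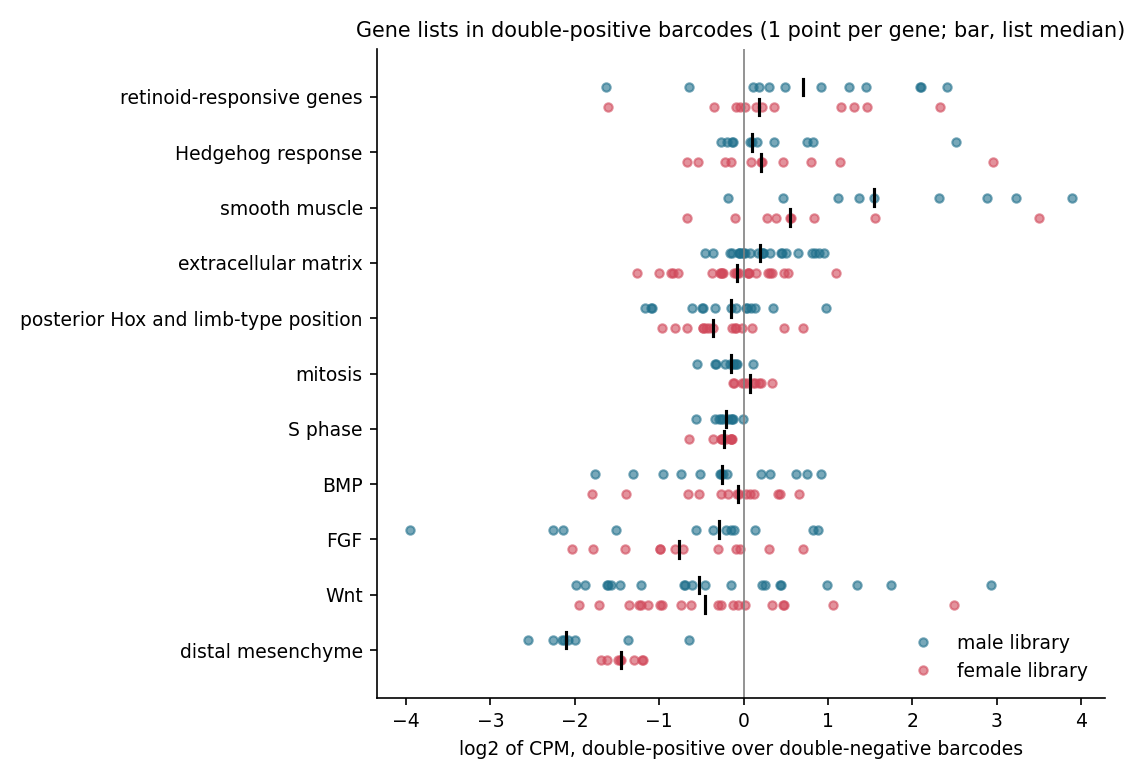
log2 ratio of CPM in double-positive over double-negative barcodes (x axis) for the measured genes of 11 lists, 1 point per gene, in the male and the female library; the bar is the list median. Distal mesenchyme genes lie below 0 in both libraries, the smooth muscle list has medians of 1.55 and 0.55, and the S phase list lies just below 0.

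Among signalling pathways, the Hedgehog inhibitor Hhip was higher in both libraries, while 5 genes of the Wnt list and 3 of the FGF list were lower. Hhip, a Hedgehog-binding inhibitor that the pathway induces, was at 30.4 against 5.31 CPM (2.52, interval 2.16 to 2.86) in male and at 47.3 against 6.09 CPM (2.96, interval 2.66 to 3.24) in female barcodes. Ptch1, the Hedgehog receptor and a target of the signal, had ratios of 0.82 and 1.14. Boc, a co-receptor, had 0.76 and 0.80, and the target Gli1 -0.19 and 0.46. Hhip was the 1 gene of 11 on the Hedgehog list past 1 log2 unit in both libraries, with list medians of 0.10 and 0.21. On the Wnt list, 1 of 20 genes was past 1 log2 unit upwards and 5 downwards. The higher one was Rspo1, a secreted Wnt amplifier, at 50.7 against 6.64 CPM and 37.9 against 6.71 CPM, with ratios of 2.93 and 2.497. The lower ones were the inhibitors Dkk1, Notum, with -1.99 and -1.72, and Wif1, with -1.58 and -1.13, the feedback gene Axin2, with -1.22 and -1.21, and the factor Lef1, with -1.60 and -1.36. Sfrp2, a secreted Wnt modulator, had 0.99 and 1.06.

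On the FGF list, 3 of 12 genes were past 1 log2 unit, all downwards. Etv4 and Etv5, factors induced by FGF, had 2 and 6 UMIs in male double-positive barcodes (-3.95, interval -6.99 to -2.09, and -2.26, interval -3.71 to -1.13) and 7 and 8 in female ones (-2.04 and -1.78). Dusp6, a phosphatase that damps the signal, had -1.51 and -1.41, and the receptor Fgfr2 0.82 and 0.71. Of 14 BMP genes 1 was past 1 log2 unit, the antagonist Grem1, with -1.31 and -1.39. The target Id1 had -0.74 and -0.53 and the inhibitory Smad7 -0.96 and -0.65, while the ligand Bmp4 had 0.75 and 0.43. Tgfbi was the 1 gene of 10 on the TGF-beta list past 1 log2 unit. The chemokine gene Cxcl12 was at 206 against 111 CPM and 243 against 106 CPM, with ratios of 0.89 and 1.20.

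Of 14 other bHLH factors measured, none was past 1 log2 unit upwards and 5 were downwards. Twist1 was at 429 against 926 CPM in male and at 456 against 1049 CPM in female barcodes, and Twist2 at 60.8 against 176 CPM and at 78.9 against 179 CPM. Hand2 had -1.31 and -1.46, Sim1 -1.96 and -1.83, and Msc, a close relative of Tcf21, had 2 UMIs in each library. Scx, a tendon factor, had 0.42 and 0.62 and Tcf4 -0.91 and -0.84. Of 20 connective tissue genes, Ebf2 and Ebf3 were past 1 log2 unit, with 2.24 and 2.25 in male and 1.34 and 1.79 in female barcodes. With barcodes thinned to 4000 UMIs the female ratio of Ebf2 was -0.62. The fibroblast factor Osr1 had 0.87 and 0.65, its relative Osr2 -0.98 and -1.01, and Pdgfra 0.47 and 0.51. None of 24 extracellular matrix genes was past 1 log2 unit in both libraries. Of the genes that lead other mesenchymal regions, Ogn had 0.89 and 1.09, Lbx2 1.24 and 0.86, and Foxd1 -0.94 and -0.999. On the list with Sim1, Tbx15 and Agtr2, 4 of 5 genes were past 1 log2 unit downwards and the fifth, Igf1, had 1.55 and 0.38.

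Smooth muscle genes were higher in the male library, and in part in the female library. Myocd, the coactivator that drives smooth muscle genes, was at 42.0 CPM in double-positive and 2.84 CPM in double-negative barcodes of the male library (3.89, interval 3.55 to 4.22), and at 28.4 and 2.51 CPM in the female library (3.50, interval 3.096 to 3.89). Des, the intermediate filament desmin, had 2.89 and 1.56. These were the 2 genes of 9 past 1 log2 unit in both libraries. The measured contractile genes split by library. Acta2, smooth muscle actin, had 3.22 in male and 0.84 in female barcodes, Tagln 2.32 and 0.27, Myl9 1.37 and 0.56, Smtn 1.12 and 0.38, and Myh11, smooth muscle myosin, 1.55 and -0.67. Synpo2 had 0.47 and 0.55 and Cald1 -0.18 and -0.11. The median over the list was 1.55 and 0.55. With the cluster led by Tagln and Acta2 left out of both classes, Acta2 had 3.73 and 0.84, Tagln 2.13 and 0.27, and Myocd 3.98 and 3.50. Des then had 2.88 and 1.56, Myl9 1.30 and 0.56, Smtn 1.08 and 0.38, Myh11 1.63 and -0.67, Synpo2 0.52 and 0.55, and Cald1 -0.23 and -0.11. With barcodes thinned to 4000 UMIs Acta2 had 3.55 and 2.17. Pericyte genes were not high, with 0 of 4 past 1 log2 unit and Pdgfrb at -0.25 and -0.41.

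Summed over 8 endothelial genes, the level was 21.3 CPM in male and 10.6 CPM in female double-positive barcodes, against 11.8 and 9.33 CPM in double-negative ones. Over 11 epithelial genes it was 30.8 and 19.7 CPM against 23.8 and 17.1 CPM, over 8 immune genes 4.34 and 6.31 CPM against 24.8 and 10.3 CPM, and over 12 skeletal muscle genes 23.2 and 6.70 CPM against 38.9 and 74.1 CPM. The endothelial and epithelial sums were thus higher in double-positive barcodes of both libraries. In the female library the differences were small, and no interval was made for these sums. Genes without a UMI in double-positive barcodes numbered 4 of the 11 epithelial ones in male and 3 in female barcodes. Of 6 measured epithelial genes the keratin gene Krt8 was past 1 log2 unit in both libraries, with 24 and 12 UMIs and ratios of 1.78 and 1.53, and the male ratio was -1.55 without the cluster led by Tagln and Acta2. No gene of the mesothelium list reached the count minimum, and its 9 genes summed to 19.9 CPM against 1.40 CPM in the male library and 0.394 CPM against 1.19 CPM in the female library. Wt1, which marks mesothelium, had 19 UMIs in male double-positive barcodes, from 0.872% of them, and none in the female library. All 10 S phase genes lay below 0 in both libraries, with medians of -0.21 and -0.23 and none past 1 log2 unit, and the mitosis list had medians of -0.14 and 0.07. The part of mitochondrial share, haemoglobin and depth in these ratios was not tested beyond the alternatives.

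Barcodes with 1 of the 2 genes lay between double-negative and double-positive ones for Foxf1, Myocd and Msx1 in both libraries. Myocd in the male library was at 2.84 CPM with neither gene, 12.1 CPM with Aldh1a2 alone and 19.6 CPM with Tcf21 alone. It was at 25.4 CPM with exactly 1 UMI of each, 39.0 CPM with at least 2 UMIs of one and 54.2 CPM with at least 2 of each. In the female library the same classes had 2.51, 11.8, 8.17, 8.72, 35.6 and 32.8 CPM, so that the barcodes just inside the threshold lay between both classes with 1 gene. Foxf1 was at 105 and 190.2 CPM with Aldh1a2 and with Tcf21 alone, against 220.5 CPM with 1 UMI of each in the male library, and at 153, 168 and 173 CPM in the female library. Rarb had 51.6 and 47.4 CPM with 1 gene and 74.2 CPM with 1 UMI of each in the male library, and 43.6, 37.0 and 29.5 CPM in the female library. Msx1 ran the other way. It was at 364 and 353 CPM with neither gene, 157 and 165 CPM with Aldh1a2 alone, 238 and 308 CPM with Tcf21 alone, and 86.9 and 137 CPM with 1 UMI of each. Hhip with Tcf21 alone was at 36.2 and 36.5 CPM, against 30.4 and 47.3 CPM over all double-positive barcodes. Meis2 with Tcf21 alone was at 227 and 169.8 CPM, less than with Aldh1a2 alone, at 359 and 327 CPM. Set against barcodes with 1 of the genes in place of double-negative ones, 8 genes were past 1 log2 unit upwards and 4 downwards. Summed over the class, barcodes with 1 gene held far fewer UMIs than double-negative ones, but a single barcode did not. Median depth was 5671 UMIs with Tcf21 alone and 6308 with Aldh1a2 alone in the male library, against 5841 with neither gene. In the female library it was 7057 and 7213 against 6113 UMIs. The part of class size in this comparison was not tested. Its number of genes measured is not given, so the counts of 8 and 4 genes have no share beside them. Median depth differed between these classes, from 5573 UMIs with 1 UMI of each to 7220 UMIs with at least 2 of each in the male library, and from 6879 to 9361 UMIs among double-positive classes of the female library.

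**Figure D4:**
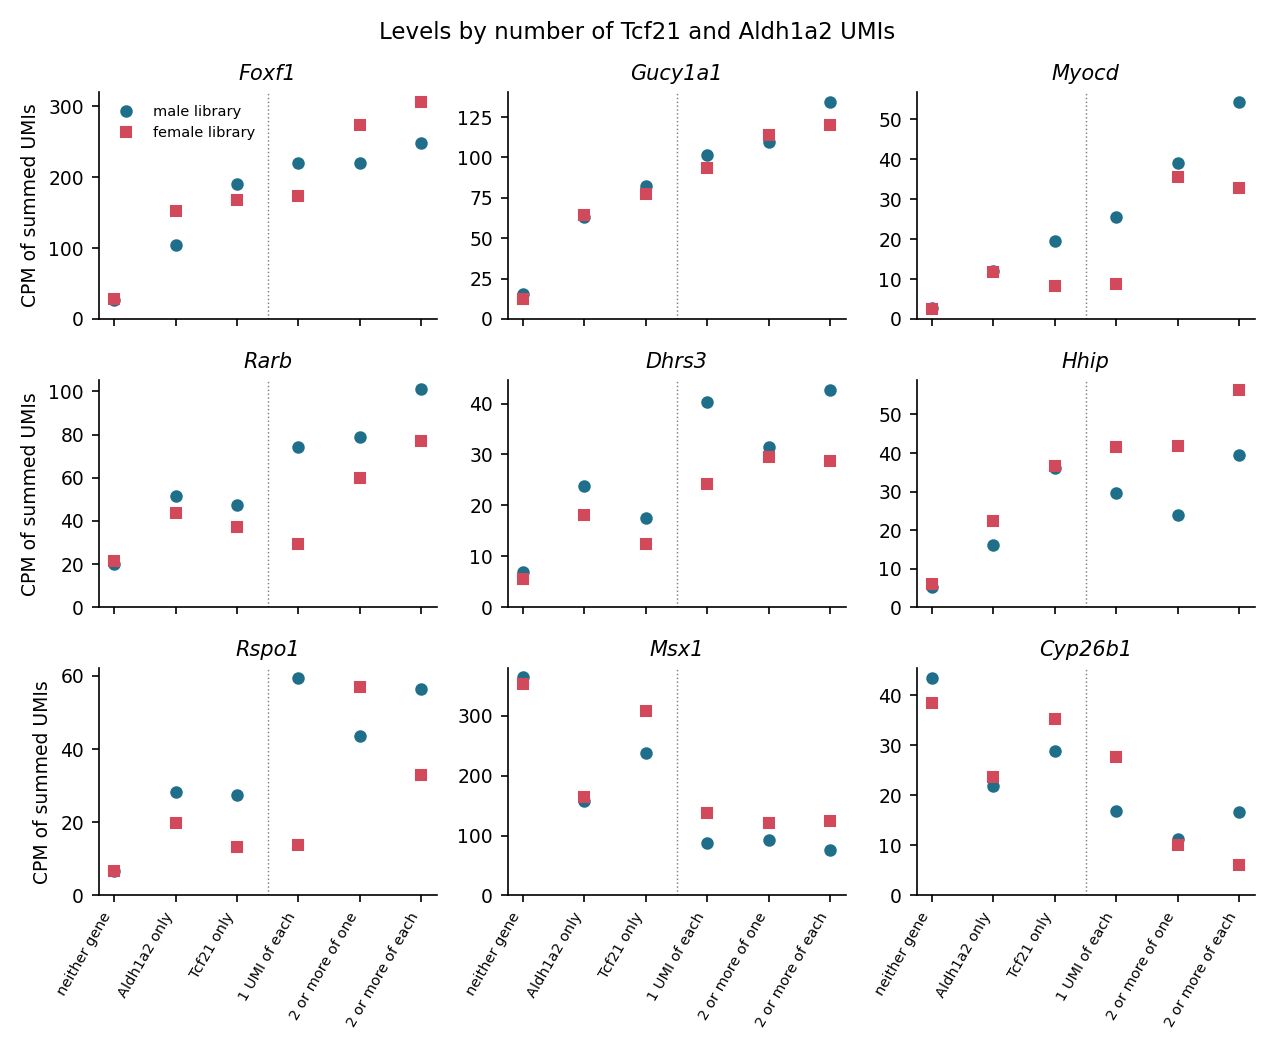
CPM of 9 genes (y axes, linear) by the UMIs of Tcf21 and Aldh1a2 in a barcode, from neither gene on the left to at least 2 UMIs of each on the right, in the male and the female library; the dotted line is the threshold of the rule. Foxf1, Gucy1a1 and Myocd are higher on the right than with neither gene, and Msx1 and Cyp26b1 are lower.

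The 3 main clusters gave double-positive barcodes of unlike content. The mitosis gene Mki67 was at 21.6 CPM in male and 37.9 CPM in female ones of cluster 1. It was at 415 and 369 CPM in cluster 7 and at 487 and 511 CPM in cluster 11. Ube2c, of the same list, ran from 24.4 and 55.9 CPM in cluster 1 to 1263 and 1103 CPM in cluster 11. The part of cell division in the differences that follow was not tested. Hhip was highest in double-positive barcodes of cluster 7, at 57.7 CPM in male and 90.0 CPM in female ones. In those of cluster 1 it was at 29.1 and 52.3 CPM, and in those of cluster 11 at 16.7 and 28.5 CPM. Lbx2, a homeobox gene that also leads cluster 11, was at 134 and 93.0 CPM there, and at 22.7 and 26.0 CPM in cluster 7. Myocd was lower in cluster 11, at 35.5 and 19.0 CPM, than in cluster 1, at 61.1 and 39.7 CPM, or cluster 7, at 45.4 and 48.5 CPM. Foxf1 was high in all 3, between 249 and 369 CPM in either library. Double-positive barcodes outside them had less Foxf1, at 99.02 and 155 CPM, and more Msx1, at 207 and 220.3 CPM against 35.5 to 91.7 CPM in the 3 clusters.

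Between the libraries, Tagln, Acta2 and Actg2 had the highest male over female ratios in double-positive barcodes, with Xist and Y-linked genes left out. Ratios here are male over female. Of 6631 genes whose counts over double-positive barcodes summed to 100 or more, 188 (2.84%) were at least 0.5 log2 units higher in male and 219 (3.3%) in female barcodes. With ratios centred on the median of all genes, -0.046, the balance turned, to 231 and 164. In the far deeper double-negative sums the same genes gave 30 (0.452%) and 19 (0.287%), and 32% of genes had opposite signs in the classes. Acta2 (chromosome 19, positions 34241090 to 34255590) was at 525 CPM in male and 61.1 CPM in female double-positive barcodes, and at 56.2 and 34.2 CPM in double-negative ones. The ratios were 3.101 (interval 2.87 to 3.35) and 0.72. Tagln, the actin-binding protein transgelin, was at 200 and 20.5 CPM, with 3.28 against 1.24 in double-negative barcodes. Actg2, enteric smooth muscle actin, had 2.89, and 4.92 in double-negative barcodes. In double-positive barcodes it had 1.59 without the cluster led by Tagln and Acta2, and 0.41 with barcodes thinned to 4000 UMIs.

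The Acta2 difference was carried by a minority of barcodes. An Acta2 UMI was seen in 77 male (22.4%) and 26 female (9.74%) double-positive barcodes, and at least 5 UMIs in 49 male and 6 female ones. The 5 barcodes with most of it held 39.1% of the male and 74.2% of the female count. The 9 male barcodes in the cluster led by Tagln and Acta2 held 552 of the 1450 Acta2 UMIs, 345 of 552 for Tagln and 712 of 1298 for Col1a1. Without that cluster Acta2 was still higher, with 2.52 in double-positive and -0.38 in double-negative barcodes, and Tagln had 1.97 and 0.12. Within cluster 1 alone Acta2 was at 549 CPM in male and 25.2 CPM in female double-positive barcodes, and within cluster 7 at 454 and 213 CPM. Barcodes with 1 of the 2 genes showed the same direction, with 2.01 for Acta2 and 1.94 for Tagln. A difference between 2 pools of embryos cannot be told apart from one between sexes here.

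**Figure D5:**
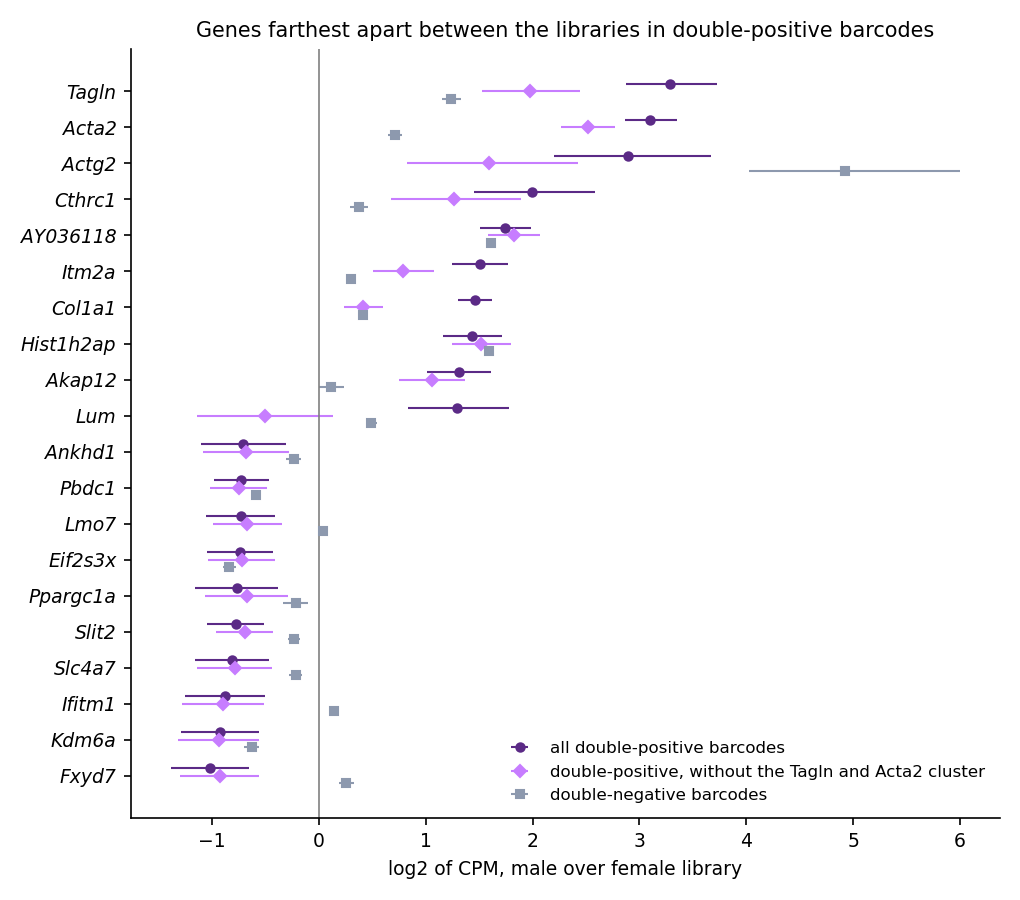
log2 ratio of CPM, male over female library (x axis), for the 10 highest and 10 lowest genes in double-positive barcodes, Xist and Y-linked genes left out; points are all double-positive barcodes, those outside the cluster led by Tagln and Acta2, and double-negative barcodes, with 95% intervals for counting error. Acta2 and Tagln stay above 1 without the cluster, while Col1a1 has 0.42 and Lum -0.50.

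The other 7 genes of the male side had ratios from 1.30 to 2.00. Col1a1, a chain of type I collagen, had 1.46 (469.6 against 171 CPM), and 0.42 without the cluster led by Tagln and Acta2, next to 0.41 in double-negative barcodes. Lum, a matrix proteoglycan, had 1.30, and -0.50 without that cluster. Cthrc1 had 2.00 and 1.27, and Itm2a 1.50 and 0.79. Akap12 had 1.31 and 1.06 without the cluster, against 0.12 in double-negative barcodes. The histone gene Hist1h2ap and the transcript AY036118 had 1.43 and 1.74, close to their ratios in double-negative barcodes of 1.59 and 1.61. On the female side the X-linked genes Kdm6a, Eif2s3x and Pbdc1, of which the first and second are known to escape X inactivation, had -0.92, -0.74 and -0.72, against -0.63, -0.84 and -0.59 in double-negative barcodes. Fxyd7, an ion pump regulator, had -1.02, Ifitm1 -0.88, Slc4a7 -0.81, the guidance ligand Slit2 -0.78, Ppargc1a -0.77, Lmo7 -0.73 and Ankhd1 -0.70.

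Of the retinoid genes, Rarb had a male over female ratio of 0.53 (interval 0.23 to 0.83) in double-positive barcodes and -0.11 in double-negative ones. Meis2 had 0.79 and -0.14, and Nr2f1 0.63 and -0.61. Aldh1a2 itself, by which the barcodes were chosen, had 326 CPM in male and 292 CPM in female double-positive barcodes, and Tcf21 274 and 196 CPM. Rdh10, Dhrs3 and Cyp26b1 had 0.13, 0.40 and 0.16. Hhip and Ptch1 were on the female side, with -0.64 and -0.38, against -0.20 and -0.06 in double-negative barcodes.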

How the data were processed

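The data are 3' droplet RNA counts of 1 male and 1 female pooled library. The authors made, per the file headers and the submitters' processing notes, UMI counts per gene and barcode with Cell Ranger 3.1 on mm10 and deposited them with no normalization and no cell calling. Which annotation they used is not given in the sources used here. Both matrices hold 31053 genes and 6794880 barcodes, and 30934 gene IDs matched GENCODE M21, which gave coordinates. Barcodes were kept and classed as the report states. Members and gene lists were chosen with earlier results of these data known.

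Counts were summed over each class and library, expressed as CPM, and compared as log2 ratios with exact conditional Poisson intervals. Shares have Clopper-Pearson intervals (95%). Intervals cover counting error only, since 1 library per sex allows no test. A count of 0 was given as the share that 3 counts would make. Genes needed a summed count of at least 100. Named genes needed at least 50 CPM in the higher class or library. They were the 20 highest and 12 lowest by the smaller ratio of the libraries, and the 10 highest and 10 lowest male over female ratios. The genes that chose the barcodes, Xist, Tsix and Y-linked, haemoglobin and mitochondrial genes were left out of these ranks. Up to 4 genes per list, and every gene of the retinoid, smooth muscle and bHLH lists, could also be named. Other genes of the text, among them Hhip, Cxcl12, Igf1 and Wt1, belong to the 37 lists. The genes in the account of steps and clusters were chosen after their values were seen. Clusters used 1988 variable genes without Tcf21 and Aldh1a2, 30 components, 15 neighbours and Leiden resolution 1 (scanpy 1.11.5, igraph 0.11.9, seed 0). Scrublet marked 0% of barcodes at its automatic threshold and so had not worked, and none were removed in the values reported. The ratio code was tested on simulated data. Of the alternatives tried, those leaving out the cluster led by Tagln and Acta2, keeping 1 cluster, using barcodes with 1 gene, and leaving out shared barcodes were chosen after seeing the data.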

Additional observations from a re-analysis of the deposited data

Results flagged for a closer look

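Some genes lay on opposite sides of 0 in the libraries when double-positive were set against double-negative barcodes. Itm2a, a membrane protein gene, had 0.98 in male and -0.23 in female barcodes. Col1a1 had 0.81 and -0.24, and Cthrc1 0.83 and -0.79. For these 3 genes part of the male count lay in the 9 double-positive barcodes of the cluster led by Tagln and Acta2. Id3, a bHLH inhibitor, had -0.27 and 0.073, and Fxyd7 -0.33 and 0.94. These differences between the libraries were not tested.

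Other genes lay on opposite sides of 0 when male were set against female barcodes in each class. Fxyd7 had -1.02 in double-positive and 0.26 in double-negative barcodes, Ifitm1 -0.88 and 0.14, and Lmo7 -0.73 and 0.043. None of these differences was tested, and 32% of the genes measured had opposite signs in the classes.

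Both genes of the rule were also found together outside the kept barcodes. With at least 2000 and fewer than 4000 UMIs, 2.61% of male (105 of 4028) and 1.45% of female barcodes (67 of 4631) had both. Among barcodes dropped for Epcam, Cdh5, Sox10 or Ptprc the shares were 2.26% and 1.90%.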

How the results depend on the processing

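No paired analysis was possible because each sex has 1 library and no replicate could be left out. Of the single-gene ratios recomputed under the alternatives, 4870 stayed within their interval, 929 moved outside it and 25 changed sign. Of those that stayed, 366 came from the summed count of at least 30 and 366 from that of 500. These settings choose genes and could not move a ratio. The counts of genes past 1 log2 unit, 209 higher and 191 lower, became 112 and 85 at a minimum of 8000 UMIs, 93 and 104 at a summed count of at least 500, 8 and 4 against barcodes with 1 gene, and 426 higher at a summed count of at least 30. The male and female higher counts of 188 and 219 became 79 and 117 after thinning and 119 and 138 within cluster 1. They became 623 and 620 at a summed count of at least 30, and 22 and 19 at 500. With at least 2 UMIs of each gene 95 were male higher. For these alternatives the number of genes measured is not given. It changes with the count minimum, so such counts alone do not show that ratios changed. The double-positive shares of 2.82% and 2.03% became 3.90% and 3.17% at 8000 UMIs, 1.80% and 1.06% after thinning, 0.951% and 0.639% with at least 2 UMIs of each gene, and 0.590% and 0.719% at a mitochondrial limit of 5%, which left 5 and 6 barcodes, too few for ratios. At a Leiden resolution of 2 the 3 main clusters held 69.2% and 59.6% of double-positive barcodes.

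Signs changed mostly in genes with few UMIs in double-positive barcodes. With at least 2 UMIs of each gene, Msc became 0.94 in male and 0.12 in female barcodes, Fosb -0.21 in male and C1qb 0.37 in female barcodes, and the male over female ratio of Lum -0.20. After thinning, Msc became 0.79 and 2.21 and Srd5a2 0.031 and 0.55, and in the female library Pax3 0.061, Myog 0.79, Atf3 1.03, C1qb 1.54, Alpl 0.32 and Ebf2 -0.62. Against barcodes with 1 gene, Myog became 1.98 and 1.30, Col9a1 -0.29 and Actc1 1.78 in the male, and Hbb-bh1 1.73 and Hba-x 2.13 in the female library. Without the cluster led by Tagln and Acta2, Krt8 became -1.55 in the male library and the male over female ratio of Lum -0.50. Within cluster 1, the male over female ratio of Fxyd7 became 0.11 and that of Lum -0.94. The cause of these changes was not tested.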
